A study of Homo sapiens with 2 samples.

Results

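The genes described here encode the proteins of the cytosolic ribosome and the factors that start, elongate and regulate translation. They were taken by symbol from the expression table. Ribosomal proteins are the RPL and RPS symbols with a number, RPLP0 to RPLP2 and RPSA. Factors are the EEF1, EEF2, EIF2, EIF3 and EIF4 symbols that carry a further letter, with 2 symbols left out, and the S6 kinase genes were not taken. The rule found 138 of 19607 genes, of which 86 were ribosomal proteins and 52 were translation factors. The factor class also holds enzymes that modify the factors, such as EEF2K. RNA was sequenced from CWR22rv1, a human prostate cancer line, as 1 library of Akt1/2 knockout cells (Akt1/2 DKO) and 1 library labelled wild type (control). In the knockout cells the Akt1 and Akt2 genes were both cut with CRISPR/Cas9, puromycin was used for selection and single clones were grown, and the sequenced clone is not named. Whether the control cells were also cloned is not given in the sources used here, so a feature of the clone and an effect of the knockout cannot be told apart.

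The ribosome is built from a large and a small subunit, each a set of proteins around ribosomal RNA, and most of these proteins are present in a single copy. Initiation factors bring the small subunit to the mRNA. The eIF4 factors bind the cap and unwind the leader, eIF2 delivers the initiator tRNA, and eIF3 holds the complex together. The eEF1 proteins then deliver each amino acid during elongation. Akt is known to raise mTORC1 activity, and mTORC1 phosphorylates the eIF4E-binding proteins and favours the translation of mRNAs that begin with a C and a run of pyrimidines (terminal oligopyrimidine, or TOP, mRNAs). Most of that control acts on translation and protein phosphorylation, neither of which RNA sequencing measures.

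The oligopyrimidine start was looked up in the RefSeq promoter table (GRCh38.p14). The motif searched on the transcribed strand was a C followed by at least 4 pyrimidines (C or T) in a row, with the C placed from 10 bases before to 10 bases after any annotated start of the gene. Of the 83 tested ribosomal proteins, 67 were matched to the table, and 59 of them (88.1%) held the motif. Of 39 matched translation factors, 20 (51.3%) did, and among 10357 matched genes of all kinds 42.3% did. With at least 7 pyrimidines after the C, the shares were 74.6% of the ribosomal proteins, 23.1% of the factors and 13.7% of all matched genes. In all 35116 windows of the table the longer run was present in 9.17%. The windows of 30 bases below run from 10 bases before the start to 20 bases after it and are printed with the pyrimidine run in capitals. They are shown for genes on which the results turn. The first 6 lie on chromosome 3, the next 4 are abundant genes from other chromosomes, and the last 4 are RPS27L and 3 factors. The windows of RPS27L and EIF4EBP3 held no run of the length searched.
RPL29, chr3:51995876-51995905, minus strand: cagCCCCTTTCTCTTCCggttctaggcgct
RPSA, chr3:39406710-39406739, plus strand: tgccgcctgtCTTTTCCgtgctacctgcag
RPL24, chr3:101686699-101686728, minus strand: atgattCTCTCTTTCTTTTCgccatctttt
RPL14, chr3:40457329-40457358, plus strand: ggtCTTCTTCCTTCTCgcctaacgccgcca
RPL35A, chr3:197950180-197950209, plus strand: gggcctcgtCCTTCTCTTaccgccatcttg
EIF4A2, chr3:186783567-186783596, plus strand: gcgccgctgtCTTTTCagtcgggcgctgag
RPS6, chr9:19380217-19380246, minus strand: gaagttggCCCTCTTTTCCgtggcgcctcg
RPL4, chr15:66504836-66504865, minus strand: cgggagtggtaagcaCTTCCTTTTCCTgtg
RPS27, chr1:153990752-153990781, plus strand: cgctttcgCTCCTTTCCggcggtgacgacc
EEF1A1, chr6:73521013-73521042, minus strand: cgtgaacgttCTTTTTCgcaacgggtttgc
RPS27L, chr15:63157458-63157487, minus strand: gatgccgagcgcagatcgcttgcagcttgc
EIF2B5, chr3:184135348-184135377, plus strand: cagCTTCCTTgcggaagtggtgaccgtgag
EEF2K, chr16:22206268-22206297, plus strand: gcccgCTTCTgctcaacctagaccagcccc
EIF4EBP3, chr5:140547652-140547681, plus strand: gtggtcggctgagtccgcctcagactcaga

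The estimated reads were rounded to whole reads and summed to 9970825 for control and 10718654 for Akt1/2 DKO cells. Fold changes set Akt1/2 DKO over control after edgeR's TMM scaling, and their 95% intervals are exact and cover counting error only, because PCR copies and the variation between cultures are not in them. With 1 library per group no difference has a replicate check and no p-value is given. Changed means at least 1.5-fold, which is 0.58 on the log2 scale. Of the targeted genes, AKT1 went from 2645 reads in the control library to 591 in the Akt1/2 DKO library and AKT2 from 2362 to 667. All 8 luminal prostate markers examined were detected, with 184 to 6408 reads in control cells and 29 to 12815 in Akt1/2 DKO cells, and they moved both ways. KRT18 and KRT8 were among those that rose, and KLK3, KLK2 and HOXB13 fell (KLK3 from 184 to 29 reads). The 6 fibroblast markers together had 140 and 156 reads, with 2 higher and 1 lower by at least 1.5-fold among the 3 tested, the 4 leukocyte markers 6 and 11 and the 3 endothelial markers 1 and 2. The part of these marker differences in the values below was not tested.

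Ribosomal protein mRNAs were among the most abundant in both libraries and took a similar share of each. Members of the 2 classes made up 29 of the 50 genes of highest FPKM in each library, where FPKM is the level per transcript length and library size. Ribosomal proteins took 6.49% of all reads in the control library (95% interval 6.48 to 6.51) and 6.68% in the Akt1/2 DKO library (6.66 to 6.69). Translation factors took 2.13% and 2.17%. The highest levels were those of EEF1A1, the main carrier of aminoacyl-tRNA to the ribosome, at 4369 FPKM in control cells and 3935 in Akt1/2 DKO cells, and of RPL41, the smallest ribosomal protein, at 3674 and 3351. The lowest tested ribosomal protein in the control library was RPL39L, a paralog of RPL39, at 51.8 FPKM.

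**Figure D1:**
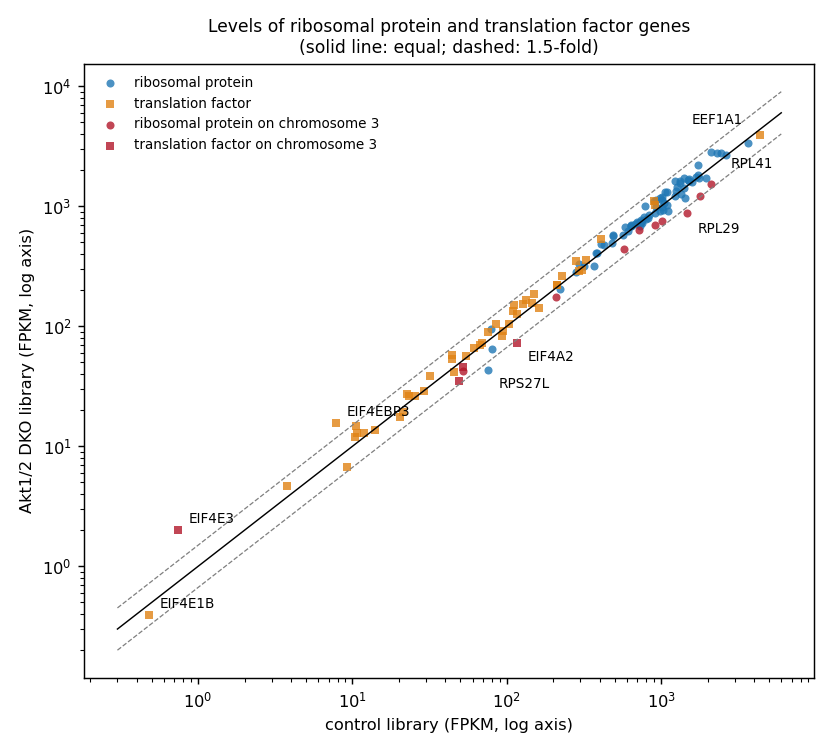
FPKM of the 134 tested members in the control library (horizontal, log axis) and the Akt1/2 DKO library (vertical, log axis), 1 point per gene, with the line of equality and dashed lines at 1.5-fold. Most points lie between the dashed lines from EIF4E1B at 0.48 FPKM up to EEF1A1 at 4369 FPKM, and the ribosomal proteins of chromosome 3 lie below the line of equality.

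Of the 138 genes, 134 reached 10 reads over both libraries and were compared. The other 4, EIF2S3L and 3 ribosomal protein paralogs with RPL3L and RPL10L among them, had 0 reads in both libraries, which allows up to 3 reads, or 0.301 CPM in control cells and 0.28 CPM in Akt1/2 DKO cells. Among all 13318 genes tested, 30.9% changed, 15.9% towards higher and 15.0% towards lower values in Akt1/2 DKO. Of the 83 ribosomal proteins tested, 2 changed (2.41%), both lower. Of the 51 translation factors tested, 3 changed (5.88%), 2 higher and 1 lower. Both shares lay below that of all genes. Genes with few reads vary more by counting alone, so the share was also taken over genes that reached 1000 reads over both libraries. There it was 15.1% of 4928 genes (5.7% higher, 9.35% lower) and 2.46% of 122 members, with 0 members higher and 3 lower (RPL29, RPS27L and EIF4A2). The cut does not match the levels. The median control FPKM was 684 for these members and 37 for the 4928 genes, and the median half-width of the counting intervals was 0.056 and 0.13.

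The classes were then compared with each other. The median log2 fold change was -0.0024 for the ribosomal proteins and 0.07 for the translation factors, a difference of -0.073, beside 0.0063 for all genes tested. The sign of the ribosomal protein median depended on the scaling, from -0.0071 with DESeq2 size factors to 0.050 with upper-quartile scaling. The 83 ribosomal proteins had an SD of 0.24 and the 51 factors one of 0.32, where the 4928 genes with at least 1000 reads had 0.67. Those 4928 genes hold extremes from -8.59 to 9.48, which widen their SD. The interquartile ranges lay closer together, at 0.28, 0.34 and 0.44. Among the 122 members with at least 1000 reads, whose median level was above that of the 4928 genes, the SD was 0.24. Above 0 were 41 of the ribosomal proteins (49.4%) and 33 of the factors (64.7%), beside 50.7% of all genes tested and 47.5% of those with at least 1000 reads. The share of the ribosomal proteins was thus near that of all genes. Whether the classes differ could not be tested with 1 library per group.

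**Figure D2:**
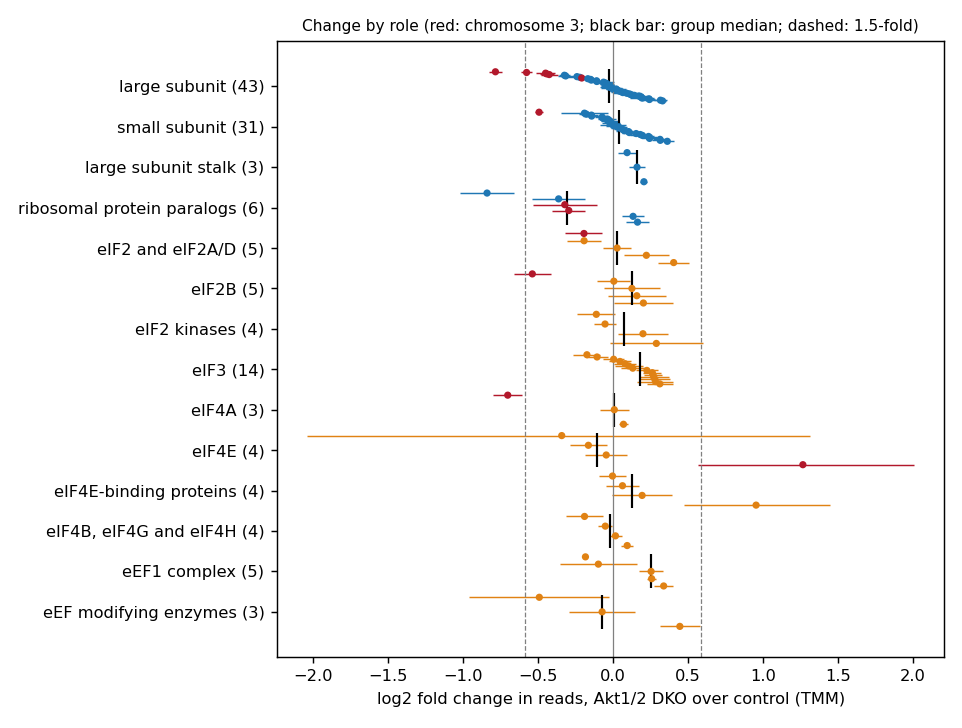
Log2 fold change in reads (Akt1/2 DKO over control, TMM) for every tested member, grouped by role, with the number of genes in parentheses. Points are genes, horizontal lines their 95% counting intervals, black bars group medians and red marks chromosome 3. The 2 subunits centre on -0.026 and 0.038, and RPL29 and RPS27L lie beyond the dashed line at 1.5-fold lower.

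Within the ribosome, the 43 large subunit proteins had a median of -0.026 and the 31 small subunit proteins one of 0.038. The stalk, which recruits elongation factors, was a little higher throughout. RPLP0 had 26316 reads in control cells and 33664 in Akt1/2 DKO cells (log2 fold change 0.21, 95% interval 0.18 to 0.23), RPLP1 had 3945 and 4669 (0.09, 0.03 to 0.16), and RPLP2 had 4591 and 5689 (0.16, 0.10 to 0.22). The highest fold changes of the class all stayed within 1.5-fold. Among them, RPL4 (ENSG00000174444) had 19859 and 27688 reads (log2 fold change 0.33, 0.30 to 0.36), RPL27A, RPS12 and RPS27 were at 0.31 to 0.32 and RPS23 was at 0.24. RPS6, whose protein is phosphorylated by the S6 kinases downstream of mTORC1, had 14686 and 17082 reads (log2 fold change 0.07, 0.04 to 0.10).

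The lower end of the ribosomal proteins was made up mainly of genes from a single chromosome. Of the 6 with the most negative fold change, 5 lay on chromosome 3 (RPL29, RPL15, RPSA, RPL35A and RPL32), and the sixth was RPS27L on chromosome 15. All 9 ribosomal proteins of chromosome 3 were below 0, each with its whole 95% interval, and their median was -0.44. RPL29 (ENSG00000162244, chr3:51993522-51995942) had 10697 reads in control cells and 6890 in Akt1/2 DKO cells, 1.72-fold lower (95% interval 1.67 to 1.77). RPL15 (ENSG00000174748, chr3:23916545-23924374) had 15029 and 11179 reads and at 1.49-fold lower (1.45 to 1.53) lay just inside the threshold. RPSA, the laminin receptor homologue that sits on the small subunit, had 23565 and 18571 reads, 1.41-fold lower (1.38 to 1.43). These were large and well-counted differences on the scale of this class.

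The other large subunit proteins of chromosome 3 were lower by less, RPL14 by the least. RPL35A had 4268 and 3466 reads (log2 fold change -0.45), RPL32 had 8371 and 6832 (-0.44), RPL24 had 5683 and 4694 (-0.42) and RPL14 had 8207 and 7876 (-0.21, 95% interval -0.25 to -0.16). Together the chromosome 3 genes gave 12% of all ribosomal protein reads in control cells and 8.54% in Akt1/2 DKO cells. The 74 tested ribosomal proteins of other chromosomes had a median of 0.03, so the difference between the medians was -0.47, and it was -0.44 with the authors' FPKM. A run of at least 7 pyrimidines was present in 6 of 8 matched ribosomal proteins of chromosome 3 and in 44 of 59 matched ones of other chromosomes. With and without it, the median log2 fold change was -0.44 and -0.47 on chromosome 3 and 0.06 and -0.03 elsewhere, and the part of the motif in these values was not tested.

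Most members of chromosome 3 lay on the same side of 0 as the rest of their chromosome. For its 741 other tested genes the median was -0.55 on the log2 scale, and of its 300 other genes with at least 1000 reads, 290 (96.7%) were below 0, with a median of -0.57. Of all 311 chromosome 3 genes with that many reads, 47.3% were at least 1.5-fold lower, RPL29 and EIF4A2 among them. A gene of this chromosome below 0 is therefore near the background of the chromosome, and the part of the chromosome-wide difference in these values was not tested. Chromosomes 8 and 18 also had low medians of other genes with at least 1000 reads. On the remaining chromosomes with tested members these medians were at -0.069 (chromosome 20) or above, several of them slightly below 0. On chromosome 18 the 61 other genes with at least 1000 reads had a median of -0.27, and its 1 member RPL17 was at -0.14. On chromosome 8 the 4 ribosomal proteins were all below 0, at -0.32 for RPL7, -0.32 for RPL30, -0.22 for RPL8 and -0.14 for RPS20, beside a median of -0.26 for the 166 other chromosome 8 genes with at least 1000 reads. Of the 3 factors of chromosome 8, EIF3H was at -0.17, EIF4EBP1 at 0.06 and EIF3E at 0.08. Among the 13 chromosomes with at least 5 tested members, the member medians other than that of chromosome 3 ran from -0.17 for chromosome 8 to 0.18 for chromosome 11.

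**Figure D3:**
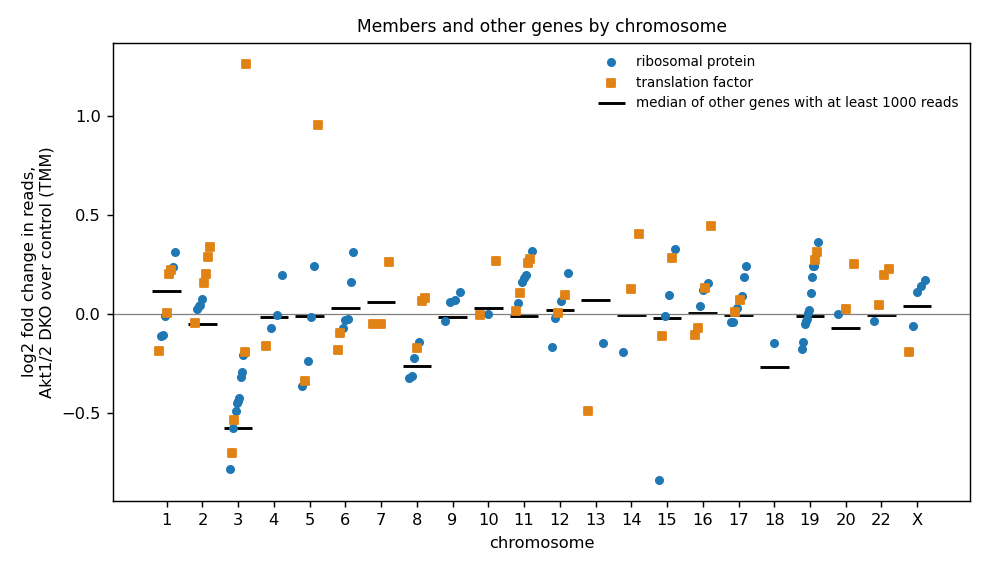
Log2 fold change in reads (Akt1/2 DKO over control, TMM) of each tested member by chromosome, with ribosomal proteins as circles and translation factors as squares. Black bars are the medians of the other genes of that chromosome with at least 1000 reads, and the Y chromosome is not drawn. On chromosome 3, 12 of 13 members and the median of the other genes (-0.57) lie below 0, and the exception is EIF4E3.

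Without chromosomes 3 and 8 and without the paralogs, 66 ribosomal proteins remained. Leaving out chromosome 8 as well as 3 was a choice made after seeing the data, and earlier results had already shown the lower median of chromosome 3. The genes left out held the lowest values of the class, so a narrower spread follows from the choice. The lowest log2 fold change of the 66 was -0.24 for RPL37, the median was 0.04 and the SD 0.14. Of the 66, 0 changed at least 1.5-fold, which was fixed by the choice, because both changed ribosomal proteins (RPL29 and RPS27L) were left out. The shares of 30.9% of all genes tested and 15.1% of those with at least 1000 reads keep the genes of chromosomes 3 and 8. The median half-width of their counting intervals was 0.05, as much as the shift between TMM and upper-quartile scaling, so the sign of a value near 0 in this group depended on the scaling. RPL17, on chromosome 18, is in this group.

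Several ribosomal proteins have a paralog that is made at a lower level or in other tissues. The sharpest fall in the whole ribosomal class was that of RPS27L (ENSG00000185088, chromosome 15), a paralog of RPS27 known as a p53-induced gene. It had 652 reads in control cells and 404 in Akt1/2 DKO cells, 1.79-fold lower (95% interval 1.58 to 2.03), while RPS27 itself was higher (6084 and 8386 reads, 0.31). Within each library, which removes the scaling, there were 10.7 RPS27L reads per 100 RPS27 reads in the control and 4.82 in Akt1/2 DKO, a log2 change of -1.15 (-1.34 to -0.97). RPL3 had 23005 and 24910 reads (-0.03) and RPL10 8632 and 10566 (0.14), while their paralogs RPL3L and RPL10L had 0 in both. The other pairs moved less. RPL26L1 had 582 and 502 reads (log2 fold change -0.36), RPL39L had 391 and 347 (-0.32) and RPL22L1 had 1458 and 1318 (-0.29), and the last 2 lie on chromosome 3. Their ratios to RPL26, RPL39 and RPL22 changed by -0.39, -0.26 and -0.29 on the log2 scale. RPL7L1 went the other way, from 19.3 to 27 reads per 100 reads of RPL7, which lies on chromosome 8 (0.49, 0.40 to 0.57). Reads of near-identical copies and processed pseudogenes can be assigned to either gene. Estimates that were not whole numbers were present in 22 members, 12 of them ribosomal proteins, among them RPL14, RPL15, RPL32 and RPSA.

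Of the 3 changed translation factors, 2 were a cap-binding homologue and an eIF4E-binding protein, both with few reads. EIF4E, the protein that binds the mRNA cap, had 1069 reads in control cells and 1058 in Akt1/2 DKO cells (log2 fold change -0.16, 95% interval -0.29 to -0.04). EIF4E2, a cap-binding homologue linked to repression, had 803 and 863 reads (-0.04, -0.19 to 0.10). By the authors' FPKM EIF4E2 was instead higher in Akt1/2 DKO, at 44.05 and 53.59 (log2 ratio 0.28), and its estimated reads were not whole numbers. EIF4E3 (ENSG00000163412), a further homologue, rose from 24 to 64 reads, 2.41-fold (95% interval 1.48 to 4.02), and was the only 1 of the 13 tested members of chromosome 3 above 0. It remained a rare mRNA, at 0.74 and 2 FPKM beside 92.4 and 83.3 for EIF4E. EIF4E1B, an oocyte form, had 8 and 7 reads, and no difference was detectable at this depth.

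The eIF4E-binding proteins hold eIF4E away from the ribosome until mTORC1 phosphorylates them. For the major forms the counting interval included 0. EIF4EBP1 had 1198 reads in control cells and 1388 in Akt1/2 DKO cells (log2 fold change 0.06, -0.05 to 0.18), and EIF4EBP2 had 1851 and 2048 (-0.0029, -0.09 to 0.09). EIF4EBP3, the least abundant form, rose from 54 to 116 reads, 1.94-fold (1.39 to 2.73). It overlaps the read-through gene ANKHD1-EIF4EBP3, which ends in the same exons, and its estimated reads were not whole numbers, so its reads may be shared. EIF4ENIF1, the eIF4E transporter, had 376 and 477 reads (0.19, -0.0036 to 0.39).

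The third changed factor was among the eIF4A, eIF4B, eIF4G and eIF4H genes. EIF4A2 (ENSG00000156976, chromosome 3) fell from 2203 to 1502 reads, 1.63-fold (1.52 to 1.74). Its abundant paralog EIF4A1 had 14300 and 16644 reads (log2 fold change 0.07) and EIF4A3, a core protein of the exon junction complex, had 1608 and 1794 (0.0091). There were 15.4 EIF4A2 reads per 100 EIF4A1 reads in the control and 9.02 in Akt1/2 DKO, a log2 change of -0.77 (-0.87 to -0.67). EIF4B and EIF4H, the helicase cofactors, were at 0.09 and -0.05, and the eIF4G genes EIF4G2 and EIF4G3 at 0.02 and -0.19.

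For eIF2, its exchange factor and its kinases, 0 of the 14 tested genes changed at least 1.5-fold, beside 30.9% of all genes tested and 15.1% of those with at least 1000 reads. EIF2S1, the alpha subunit that the stress kinases phosphorylate, had 1257 and 1845 reads, 1.32-fold higher (log2 fold change 0.40, 95% interval 0.30 to 0.51), EIF2S2 had 1784 and 2016 (0.03) and EIF2S3 1311 and 1272 (-0.19). The subunits of one complex thus differed from each other by more than their counting intervals. In eIF2B, which recharges eIF2 with GTP, EIF2B5 on chromosome 3 encodes the catalytic epsilon subunit and had 1249 and 954 reads, 1.45-fold lower (1.33 to 1.58), while EIF2B1 to EIF2B4 lay between 0.0061 and 0.20. Of the kinases, EIF2AK1 (HRI) was at -0.05, EIF2AK2 (PKR) at 0.20, EIF2AK3 (PERK) at 0.29 with 155 and 210 reads, and EIF2AK4 (GCN2) at -0.11. EIF2A, a chromosome 3 gene for an alternative initiation factor, had 1089 and 1056 reads (-0.19, -0.32 to -0.07), and EIF2D was at 0.22.

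The 14 eIF3 genes, which include the near-identical copies EIF3C and EIF3CL, had a median log2 fold change of 0.18 beside 0.0063 over all genes, and 12 of the 14 were above 0, beside 50.7% of all genes tested and 47.5% of those with at least 1000 reads. None passed 1.5-fold. The highest was EIF3K with 1892 reads in control cells and 2605 in Akt1/2 DKO cells (0.31, 0.23 to 0.40), and EIF3A, the largest subunit, had 4035 and 5385 (0.27, 0.21 to 0.33). EIF3H, on chromosome 8, had 2009 and 1975 (-0.17, -0.26 to -0.08). EIF3C and EIF3CL, whose reads can be assigned to either copy, were at 0.13 and -0.11.

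In elongation, EEF1A1 had 93487 reads in control cells and 91279 in Akt1/2 DKO cells (log2 fold change -0.18, -0.20 to -0.17), and the other eEF1 genes with many reads lay on the opposite side. EEF1A2, an isoform found mainly in nerve and muscle, had 2177 and 2879 reads (0.25, 0.17 to 0.34). EEF1B2, which recharges eEF1A, had 3338 and 4678 (0.34, 0.27 to 0.40), and EEF1G had 13772 and 18258 (0.26, 0.23 to 0.29). EEF1A2 gave 2.33 reads per 100 EEF1A1 reads in the control and 3.15 in Akt1/2 DKO, a log2 change of 0.44 (0.36 to 0.52). EEF2K, the kinase that halts elongation by phosphorylating eEF2 and that is inhibited by mTORC1 signalling, had 780 and 1178 reads and was 1.36-fold higher (95% interval 1.24 to 1.49). EEF1E1 was at -0.10, and the methyltransferases EEF2KMT and EEF1AKMT1 were at -0.07 and -0.49, the latter from 90 and 71 reads.

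Translation genes outside the symbol rule were also read against all genes tested, of which 30.9% changed (15.1% of those with at least 1000 reads). Of the 4 ribosomal proteins with other names, FAU, RACK1 and RPL36AL among them, 0 changed at least 1.5-fold, with a median log2 fold change of 0.18, and RACK1 was the highest with 7476 and 11472 reads (0.47). Of 20 further factors 0 changed, with a median of 0.12. EEF2, the translocase that EEF2K phosphorylates, had 24106 and 37603 reads (0.49, 0.47 to 0.52). EIF1AX, a factor for start site scanning, had 894 and 1484 (0.58, 0.46 to 0.70), just inside the threshold, which it would pass with upper-quartile scaling. PABPC1, the poly(A)-binding protein on chromosome 8, had 9599 and 8652 (-0.30, -0.34 to -0.26), and LARP1, which binds TOP mRNAs, had 4583 and 6039 (0.25, 0.19 to 0.30). Of 17 genes that link mTORC1 to translation 0 changed and the median was 0.04 in reads, but 0.23 by the authors' FPKM (0.03 over all genes tested). DDIT4, an mTORC1 inhibitor and stress gene, was the highest of these with 711 and 1140 reads (0.53, 0.40 to 0.67), RHEB, the activator of mTORC1, had 1303 and 1934 (0.42), and MTOR had 1466 and 1674 (0.04, -0.06 to 0.14).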

How the data were processed

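RNA sequencing of CWR22rv1 cells gave 1 Akt1/2 DKO library and 1 control library. The submitters' processing notes name fastp 0.20.0, TopHat, Cufflinks and edgeR with the build GRCh38.p10, without saying which step each served. The authors deposited estimated counts per gene, not normalized, and FPKM values for the same libraries. Their fold changes, p-values and FDR, a summary by ontology class and a correlation of the libraries were not used here. Estimated counts were rounded to whole reads, 1 library per group was compared without a test, and a gene was kept once its reads over both libraries reached 10. TMM factors (edgeR 4.0.16, R 4.3.3) over all kept genes set the ratio of library sizes at 1.11. Intervals are exact (Clopper-Pearson, 95%) given the reads of both libraries (scipy 1.17.1), and those of ratios between 2 genes are normal intervals on the log scale. A library under 3 reads is at the floor. The steps were tested on simulated data. Chromosomes and positions are from GENCODE release 29 (GRCh38), which held all 138 identifiers, and start sequences from RefSeq (GRCh38.p14), whose table is not complete. The members, lists and named genes were chosen with earlier results of these data known. Named were the paralog pairs, the stalk, RPSA, the eIF4E and eIF4E-binding genes, the eIF2 kinases, EEF2K, the members of chromosome 3 and the 6 largest rises and 6 largest falls of each class among members with at least 100 reads. Other names were chosen after their values were seen. Some genes that these rules name are not reported here. The alternatives were other scalings (DESeq2 1.42.0 size factors among them), the authors' FPKM, other read filters and thresholds, and sets of members left out.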

Additional observations from a re-analysis of the deposited data

How the results depend on the processing

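Each class median was set against the median half-width of the single-gene counting intervals. This was 0.051 for ribosomal proteins and 0.10 for factors, and it is not an interval of the median itself. Both medians moved by less under total count scaling, DESeq2 size factors, TMM without the members and the authors' FPKM. So they did with the 3 other read filters and without the members of chromosome 3, as did the factor median under upper-quartile scaling. A scaling shifts every gene equally, so it cannot move the difference between the classes. That difference was -0.077 with FPKM, -0.073 to -0.078 with the other read filters and -0.053 without chromosome 3. With upper-quartile scaling the median of the ribosomal proteins was 0.050. The numbers that changed at least 1.5-fold (2 ribosomal proteins, 3 factors) became 1 and 1 without chromosome 3, and also 1 and 1 without chromosomes 3 and 8, a choice made after seeing the data. A 2-fold threshold left 0 and 1, the latter EIF4E3. With the whole counting interval past 1.5-fold 1 factor remained, EIF4A2, and 2 ribosomal proteins. Leaving out the members with estimates that were not whole numbers, also chosen after seeing the data, left 2 of each class. By FPKM in place of reads the ribosomal proteins made up 15.6% of the control library and 16.1% of the Akt1/2 DKO library, since FPKM divides by transcript length. All 9 ribosomal proteins of chromosome 3 were below 0 with FPKM. They were also below 0 under each scaling, where the largest shift from TMM (0.052) was too small to move the nearest to 0, RPL14 at -0.21. Of the 134 members, 52 moved past their own counting interval with upper-quartile scaling, 33 with total count scaling and 34 with FPKM, and 0 with DESeq2 size factors or TMM without the members. No member that changed at least 1.5-fold reversed its sign. Between scalings every gene shifts by the same amount, at most 0.052, so only FPKM could have reversed one. The depth limits EIF4E3, EIF4EBP3 and EIF4E1B. No paired analysis was possible because each group has 1 library.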

Other observations

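Of the ribosome biogenesis genes, 27 lay above 0 on the log2 scale and 7 below, where 50.7% of all genes tested were above 0. Of 34 genes tested 0 changed at least 1.5-fold, beside 30.9% of all genes tested and 15.1% of those with at least 1000 reads, and the median log2 fold change was 0.23 beside 0.0063 over all genes. BYSL, a factor of small subunit assembly, had 339 and 563 reads in the control and Akt1/2 DKO libraries (0.58, 95% interval 0.39 to 0.78). At 1.498-fold it lay just inside the threshold. GAR1, a protein of the pseudouridylation complex, had 186 and 301 (0.55, 0.28 to 0.82) and NOP2, an rRNA methyltransferase, had 1729 and 2621 (0.45, 0.36 to 0.54). With upper-quartile scaling, which raises every value by 0.052, BYSL and GAR1 would pass the threshold. The abundant nucleolar proteins NCL and NPM1 were at 0.11 and 0.16. TAF1B, a factor for RNA polymerase I, had 149 and 112 reads (-0.56, -0.93 to -0.20), and GNL3 and RRP9, both on chromosome 3, were at -0.23 and -0.25.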
